A study of Mus musculus with 12 samples.

Results

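A set of 10 genes of the activator protein 1 (AP-1) and immediate early group were followed across mouse tongue organoids with and without a Foxe1 knock-out label: Jun, Junb and Jund of the Jun family, Fos, Fosb, Fosl1 and Fosl2 of the Fos family, and Atf3, Egr1 and Ier3. They were chosen by symbol, with earlier results of these data known. All 10 of the 10 were present among the 55367 genes of the deposited table. They were expressed enough to be tested, as were 17076 genes in all. Organoids are epithelial cultures grown in 3 dimensions, here from taste papillae at the back of the tongue, the foliate papilla (FoP) and the circumvallate papilla (CVP). Foxe1 is a forkhead transcription factor, and the question behind the series was its role in the fate of posterior tongue stem cells. The FoP line had 4 libraries labelled Foxe1 knock-out, from clone 2.4 and clone 2.5 in duplicate, and 2 wild type libraries. The CVP line had 4 libraries labelled Foxe1 knock-out, from clone 2.9 and clone 2.10 in duplicate, and 2 wild type libraries. All 12 are bulk polyadenylated RNA libraries of tongue origin, with genetic modification given as the treatment; age, sex and strain are not given in the sources used here.

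Each knock-out clone is 1 culture in duplicate, and wild type is taken as 1 culture per line with no clone named, so the knock-out and the derivation of a clone cannot be told apart. The duplicates share a culture, and the p-values measure only the spread between these libraries, which may be technical. The Foxe1 transcript did not separate the groups: it had 1471 and 1292 counts in clone 2.4 and 707 and 660 in clone 2.5, against 1124 and 989 in FoP wild type, and 1527 and 1432 in clone 2.9 and 487 and 547 in clone 2.10, against 1049 and 1144 in CVP wild type. An edit can leave a transcript in place, so these counts do not check the label, and knock-out (KO) below means a library so labelled. Library totals were 59.3 to 73.6 M counts, and mitochondrial transcripts took 0.580% to 0.740% of them. The tissue label was checked against 7 epithelial markers (Epcam, Cdh1, Krt5, Krt14, Krt8, Krt18 and Trp63), which were detected in every library and summed to 11090 to 13929 CPM (counts scaled to the library total, per M) in FoP KO, 11476 to 11549 CPM in FoP wild type, 12818 to 15232 CPM in CVP KO and 9939 to 10415 CPM in CVP wild type. These sums overlapped between KO and wild type in FoP and were higher in the KO libraries in CVP. The single markers did not share that direction. In CVP KO Krt14 and Krt5 were higher, at log2 fold changes of 1.37 and 0.58 (edgeR, adjusted p under 0.05). Krt18, Epcam and Trp63 were lower there, at -0.57, -0.53 and -0.34. In FoP KO Trp63 was higher at 0.41 and Krt18 lower at -0.34. The leukocyte marker Ptprc was at 0 counts in every library.

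AP-1 is a family of dimers rather than a single protein. Jun proteins pair with each other or with Fos and ATF proteins through basic leucine zipper (bZIP) domains and bind short palindromic DNA sites, whereas Fos proteins need a Jun-type partner. Many of these genes are immediate early genes, switched on by growth factors, stress or wounding without new protein synthesis, and their transcripts are often short lived. In stratified epithelia AP-1 proteins are known for their part in keratinocyte differentiation, wound repair and inflammation, with individual members active in different layers.

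The sequence upstream of the genes is shown for Jun and Atf3, which fell in both lines, and for Junb and Fos, whose calls differed by line, so that the letters beside the start can be read with the values that follow. Each is the 250 bases before the start in RefSeq (build GRCm38.p6), written 5′ to 3′ on the strand of the gene. Capitals mark matches to the motifs named after them.
Jun, chr4:95052223-95052472, minus strand: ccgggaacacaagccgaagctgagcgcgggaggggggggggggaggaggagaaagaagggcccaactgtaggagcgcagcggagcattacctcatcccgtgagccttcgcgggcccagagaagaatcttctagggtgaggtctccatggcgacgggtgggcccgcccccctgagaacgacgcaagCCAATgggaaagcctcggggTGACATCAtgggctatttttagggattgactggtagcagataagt
Junb, chr8:84978749-84978998, minus strand: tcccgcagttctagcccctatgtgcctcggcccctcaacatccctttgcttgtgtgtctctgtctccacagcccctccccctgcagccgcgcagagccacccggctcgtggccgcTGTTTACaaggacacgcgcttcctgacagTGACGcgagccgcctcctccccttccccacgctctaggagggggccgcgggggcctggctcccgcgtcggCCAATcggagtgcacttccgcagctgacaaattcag
Fos, chr12:85473640-85473889, plus strand: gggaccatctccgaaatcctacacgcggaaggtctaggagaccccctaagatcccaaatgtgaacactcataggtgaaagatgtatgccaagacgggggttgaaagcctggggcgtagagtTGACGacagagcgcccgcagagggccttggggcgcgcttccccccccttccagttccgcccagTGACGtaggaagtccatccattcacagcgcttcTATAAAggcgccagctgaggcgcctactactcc
Atf3, chr1:191183334-191183583, minus strand: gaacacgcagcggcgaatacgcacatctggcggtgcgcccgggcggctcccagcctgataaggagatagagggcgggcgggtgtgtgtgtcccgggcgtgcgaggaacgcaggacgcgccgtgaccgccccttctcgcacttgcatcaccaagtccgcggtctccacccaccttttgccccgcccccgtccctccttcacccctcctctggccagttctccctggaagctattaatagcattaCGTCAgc
The RefSeq table held such a window for 8 of the 10 members, and Egr1 and Fosl1 are named only. Motifs were searched on both strands of these 8 windows and of 32851 windows of the same length. In the Jun window the capitals mark TGACATCA, a variant AP-1 site at bases -45 to -38 that 2.93% of all windows hold, and a CCAAT box at -65 to -61, found in 33.8% of windows. In the Junb window they mark the forkhead core TGTTTAC at -135 to -129, found in 3.17% of windows, the short cyclic AMP response core TGACG at -106 to -102, found in 17.8%, and a CCAAT box at -36 to -32. In the Fos window they mark TGACG at -129 to -125 and again at -66 to -62, and the TATA box TATAAA at -33 to -28, found in 12.4% of windows. In the Atf3 window they mark that core in reverse, CGTCA, at -7 to -3. TGACG was in 4 of the 8 member windows (Junb, Fos, Fosb and Atf3), and the CCAAT box in 3 of 8 (Jun, Junb and Ier3). TGACATCA, TGTTTAC and TATAAA were each in 1 of 8. The AP-1 site TGANTCA, with any base at N, was in 0 of the 8 member windows and 6.75% of all windows. The full cyclic AMP response element TGACGTCA was in 0 of 8 and 1.55%, and the CArG box in 0 of 8 and 1.47%. The core TGACG lies inside TGACGTCA, so those searches overlap. These matches describe letters only, and sites beyond the 250 bases were not searched. The RefSeq starts of Atf3, Fosb, Fosl2 and Ier3 lie inside the gene models of the annotation GENCODE M21. Those of Junb and Jund lie ahead of the gene model. The Jund window ends at base 70697738, and its gene model starts at 70698949.

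Across the 10 members, 1 was called higher and 5 lower in FoP KO, and 0 were called higher and 8 lower in CVP KO (edgeR quasi-likelihood test, Benjamini-Hochberg adjusted p under 0.05 over all tested genes). In CVP KO 1 member, Egr1, was higher at an unadjusted p under 0.05, and 0 were higher by the DESeq2 Wald test. Among all tested genes 13.5% were called higher and 15.3% lower in FoP KO, and 23.5% higher and 22.9% lower in CVP KO. The members were chosen with earlier results of these data known, and that choice may favour an excess over these shares. The median log2 fold change of the members, KO over wild type, was -0.26 in FoP and -0.44 in CVP, beside 0.01 and 0.03 for all tested genes. Jun, Fosb, Fosl1, Fosl2 and Atf3 were called lower in both lines, Junb, Fos and Ier3 in CVP, and Jund in neither line. In bulk RNA a smaller share of cells expressing a gene and less RNA per cell cannot be told apart.

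**Figure D1:**
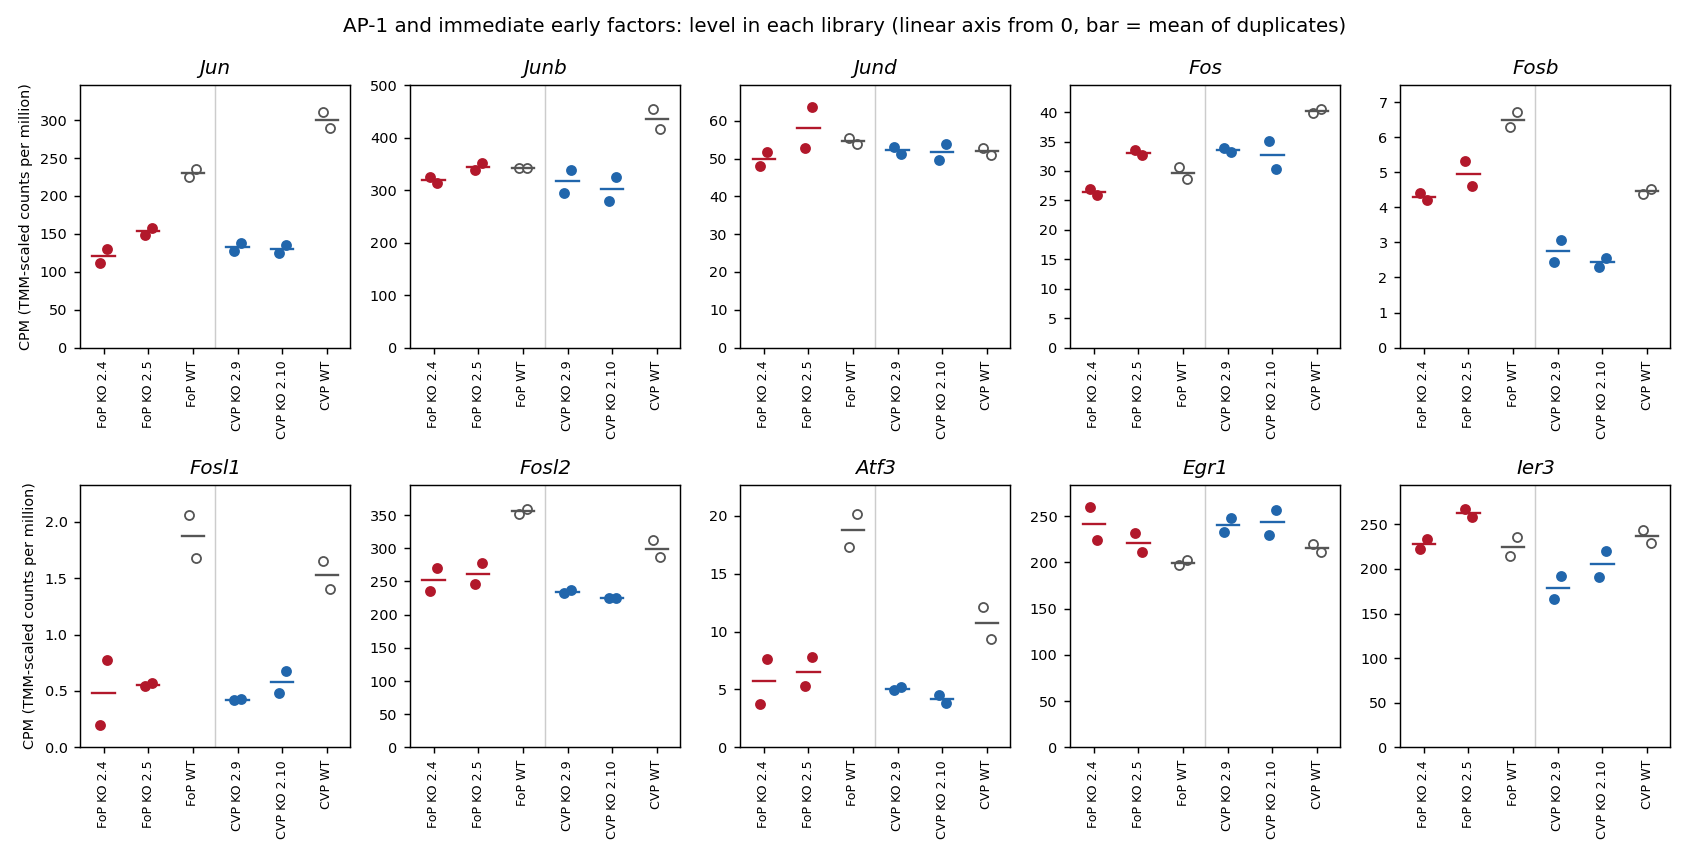
Level of each of the 10 members in every library, in CPM on TMM-scaled library sizes (linear axes from 0), by culture; points are libraries, bars the mean of the duplicates, filled points KO and open points wild type. All KO points of Jun, Fosb, Fosl1, Fosl2 and Atf3 lie below both wild type points of their line.

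Jun encodes c-Jun, the strongest activator of its family, from a gene with 1 exon at chr4:95049034-95052222 on the minus strand (GRCm38, GENCODE M21). Jun had 112, 130, 149 and 158 CPM in FoP KO, in the order of clone 2.4 and clone 2.5 duplicates, against 225 and 235 CPM in FoP wild type. It had 128, 138, 125 and 135 CPM in CVP KO, in the order of clone 2.9 and clone 2.10 duplicates, against 311 and 289 CPM in CVP wild type. Every KO library lay below both wild type libraries of its line, and the KO libraries of the lines shared one range while the wild type libraries did not. The log2 fold change of Jun was -0.75 ± 0.11 (SE) in FoP, 1.68-fold lower, with an edgeR adjusted p of 0.000366, and -1.19 ± 0.10 in CVP, 2.28-fold lower, with 5.8e-06. With the duplicates summed to 1 column per culture, the edgeR adjusted p of Jun in FoP was 0.076. Junos, annotated antisense to Jun, had log2 fold changes of -0.12 in FoP and -0.32 in CVP with edgeR adjusted p of 0.881 and 0.583, so the reads shared by overlap cannot be assigned but this transcript was not called.

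Junb, a weaker activator that can oppose Jun at shared sites, lies at chr8:84974484-84978718 on the minus strand. It had 326, 314, 338 and 351 CPM in FoP KO, against 342 and 343 CPM in FoP wild type, and these ranges overlapped. It had 295, 338, 279 and 324 CPM in CVP KO, against 455 and 417 CPM in CVP wild type, where every KO library was the lower. On the log2 scale the KO minus wild type value of Junb was -0.04 ± 0.07 in FoP, with an edgeR adjusted p of 0.722 and a 95% interval of -0.20 to 0.12, and -0.50 ± 0.07 in CVP, with 0.000143. Junb overlaps Prdx2 on the other strand, whose log2 fold changes were 0.08 in FoP and -0.04 in CVP (edgeR adjusted p of 0.367 and 0.614).

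Jund, the broadly expressed member that responds little to serum, lies at chr8:70698949-70700616 on the plus strand. Jund ranged from 48.1 to 63.5 CPM in FoP KO, against 53.9 to 55.5 CPM in FoP wild type, and from 49.7 to 53.8 CPM in CVP KO, against 51.1 to 52.7 CPM in CVP wild type. KO and wild type overlapped in both lines. The log2 difference was -0.02 in FoP with a 95% interval of -0.20 to 0.17, and 0.00 in CVP with an interval of -0.18 to 0.19 (edgeR adjusted p of 0.905 and 0.989).

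The relative make-up of the Jun family is given next. Per kilobase of exon, Jun made up 19.5% ± 1.71 (SD, n = 4) of the Jun family in FoP KO, against 28.4% ± 0.71 (n = 2) in FoP wild type, and 20.0% ± 0.47 (n = 4) in CVP KO, against 29.9% ± 0.10 (n = 2) in CVP wild type. Junb was the largest share in each group, at 65.8% in FoP KO, 58.6% in FoP wild type, 64.9% in CVP KO and 60.2% in CVP wild type. The Jun shares of KO and wild type libraries did not overlap in either line, and the shares were not tested.

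**Figure D2:**
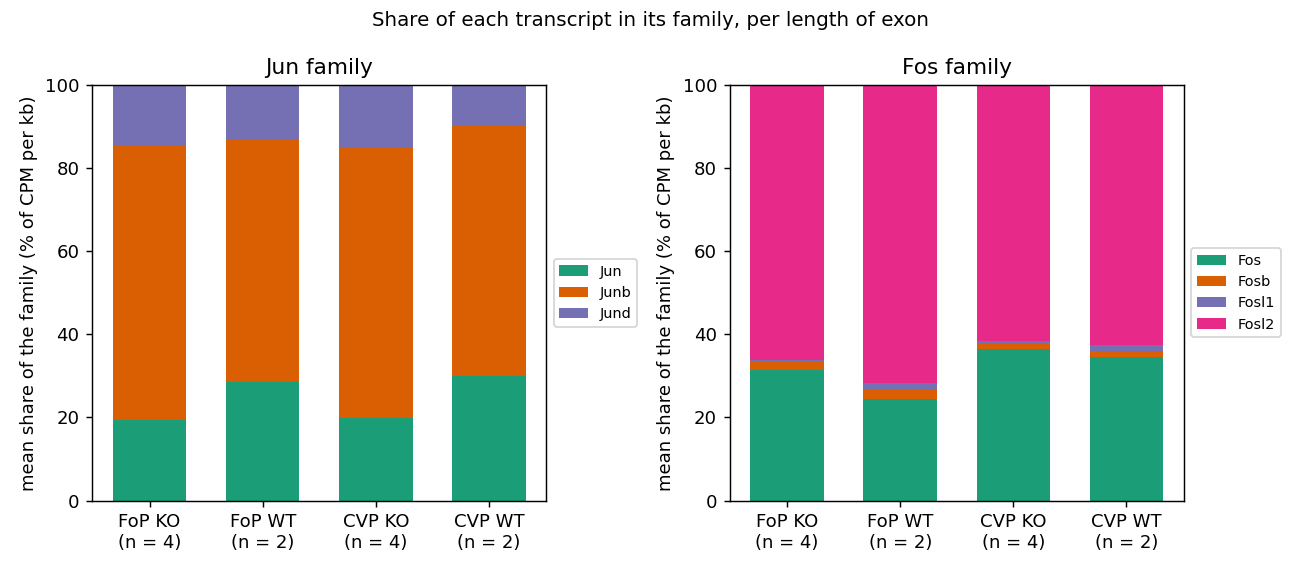
Mean share of each member in the Jun family (left) and the Fos family (right), in percent of the family's CPM per kilobase of exon, for the 4 groups with n libraries each; stacked bars reach 100%. Jun takes 19.5% in FoP KO and 20.0% in CVP KO, below the 28.4% and 29.9% of the wild type groups, and Fosl2 is the largest share of the Fos family in each group.

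Fos, the founding immediate early partner of Jun, lies at chr12:85473890-85477273 on the plus strand. It had 26.9, 25.9, 33.5 and 32.6 CPM in FoP KO, against 30.6 and 28.6 CPM in FoP wild type. In that line clone 2.4 lay below and clone 2.5 above both wild type libraries. It had 33.9, 33.2, 35.1 and 30.3 CPM in CVP KO, against 39.8 and 40.6 CPM in CVP wild type, with no overlap. Fos had a log2 fold change of 0.01 ± 0.10 in FoP (edgeR adjusted p of 0.977) and -0.28 ± 0.10 in CVP (0.0345). The CVP call of Fos was lost without clone 2.9 duplicate 2 (edgeR adjusted p of 0.0544), clone 2.10 duplicate 2 (0.0766), CVP wild type library 1 (0.120) or library 2 (0.146), without the whole of clone 2.9 (0.0738) or clone 2.10 (0.0862), and with the duplicates summed (0.229).

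Fosb, which can also be spliced to a form lacking the activation domain, was expressed near the low end of the family, at chr7:19302696-19310051 on the minus strand. It had 4.41, 4.20, 5.31 and 4.60 CPM in FoP KO, against 6.28 and 6.71 CPM in FoP wild type, and 2.43, 3.06, 2.30 and 2.57 CPM in CVP KO, against 4.39 and 4.52 CPM in CVP wild type. All KO libraries were below the wild type libraries of their line. Fosb had a log2 fold change of -0.49 ± 0.15 in FoP (edgeR adjusted p of 0.027) and -0.78 ± 0.15 in CVP (0.000981). The FoP call of Fosb was lost without clone 2.4 duplicate 1 (edgeR adjusted p of 0.0595) or duplicate 2 (0.0605), FoP wild type library 1 (0.0947) or library 2 (0.171), without the whole of clone 2.4 (0.131), without a filter on low counts (0.0908) and with the duplicates summed (0.250), and the CVP call with the duplicates summed (0.0621).

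Fosl1 encodes Fra-1, which lacks the activation domain of Fos and is known from migrating epithelial cells, and lies at chr19:5447547-5455946 on the plus strand. It had 0.198, 0.774, 0.540 and 0.573 CPM in FoP KO, against 2.06 and 1.68 CPM in FoP wild type, and 0.419, 0.428, 0.482 and 0.680 CPM in CVP KO, against 1.65 and 1.40 CPM in CVP wild type. The lowest value, clone 2.4 duplicate 1, was 3.92-fold below its own duplicate, and every KO library was below every wild type library of both lines. The log2 fold change was -1.84 ± 0.39 in FoP, 3.59-fold lower (edgeR adjusted p of 0.00349), and -1.60 ± 0.39 in CVP, 3.03-fold lower (0.00469). With the duplicates summed, the edgeR adjusted p in FoP was 0.0742. Fosl1 overlaps Ccdc85b on the other strand, which had log2 fold changes of 0.16 in FoP and -0.07 in CVP (edgeR adjusted p of 0.281 and 0.616).

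Fosl2 encodes Fra-2, active in differentiating keratinocytes, and lies at chr5:32135801-32157842 on the plus strand. It had 235, 270, 245 and 277 CPM in FoP KO, against 351 and 360 CPM in FoP wild type, and 232, 237, 225 and 225 CPM in CVP KO, against 313 and 286 CPM in CVP wild type. The groups did not overlap in either line. Fosl2 had a log2 fold change of -0.47 ± 0.06 in FoP (edgeR adjusted p of 0.000215) and -0.38 ± 0.06 in CVP (0.000382). With the duplicates summed, the edgeR adjusted p in FoP was 0.0504. Per kilobase of exon, Fosl2 made up 66.1% of the Fos family in FoP KO, 71.6% in FoP wild type, 61.7% in CVP KO and 62.5% in CVP wild type.

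Atf3, a stress-induced bZIP factor that pairs with Jun and often represses, lies at chr1:191170296-191218039 on the minus strand. It had 3.77, 7.65, 5.29 and 7.78 CPM in FoP KO, against 17.3 and 20.2 CPM in FoP wild type. It had 4.92, 5.23, 4.52 and 3.79 CPM in CVP KO, against 12.1 and 9.33 CPM in CVP wild type. All KO libraries were below all wild type libraries, across lines as well as within them. The log2 fold change was -1.61 ± 0.24 in FoP, 3.06-fold lower (edgeR adjusted p of 0.000514), and -1.22 ± 0.24 in CVP, 2.33-fold lower (0.00161). By size of change, Atf3 ranked within the top 5.79% of tested genes in FoP and the top 13.4% in CVP, Fosl1 within 4.45% and 8.83%, and Jun within 18.1% and 13.9%. With the duplicates summed, Atf3 kept its call in both lines, and Jun, Junb, Fosl1 and Fosl2 kept theirs in CVP. Summing leaves 1 wild type column per line, so this does not set Atf3 apart from the others.

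Egr1, a zinc finger factor induced through ERK signalling and serum response factor, lies at chr18:34859823-34864984 on the plus strand and was the 1 member called higher in a line. It had 260, 224, 232 and 211 CPM in FoP KO, against 197 and 203 CPM in FoP wild type, and 233, 249, 230 and 257 CPM in CVP KO, against 220 and 212 CPM in CVP wild type. Every KO library was above the wild type libraries of its line. The log2 fold change was 0.21 ± 0.07 in FoP (edgeR adjusted p of 0.0463) and 0.17 ± 0.07 in CVP (0.0806, not called). Among the 12 libraries left out in turn, the FoP call of Egr1 was lost for each except clone 2.10 duplicate 1, clone 2.10 duplicate 2 and clone 2.5 duplicate 2, with edgeR adjusted p from 0.0509 to 0.227. It was also lost with culture as a random block in limma voom (adjusted p of 0.114) and with the duplicates summed in edgeR (0.202), and the CVP value of Egr1 was called without clone 2.4 duplicate 1 (edgeR adjusted p of 0.0321).

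Ier3, a short-lived regulator of ERK signalling and cell death that is not a DNA-binding factor, lies at chr17:35821684-35822923 on the plus strand. It had 222, 233, 268 and 258 CPM in FoP KO, against 215 and 235 CPM in FoP wild type, where the groups overlapped. It had 166, 192, 191 and 220 CPM in CVP KO, against 244 and 229 CPM in CVP wild type, with no overlap. The log2 fold change was 0.12 ± 0.10 in FoP (edgeR adjusted p of 0.401) and -0.30 ± 0.10 in CVP (0.0248). The CVP call of Ier3 was lost without CVP wild type library 1 (edgeR adjusted p of 0.170) or library 2 (0.0615), without the whole of clone 2.9 (0.107), without a filter on low counts (0.0683) and with the duplicates summed (0.158).

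**Figure D3:**
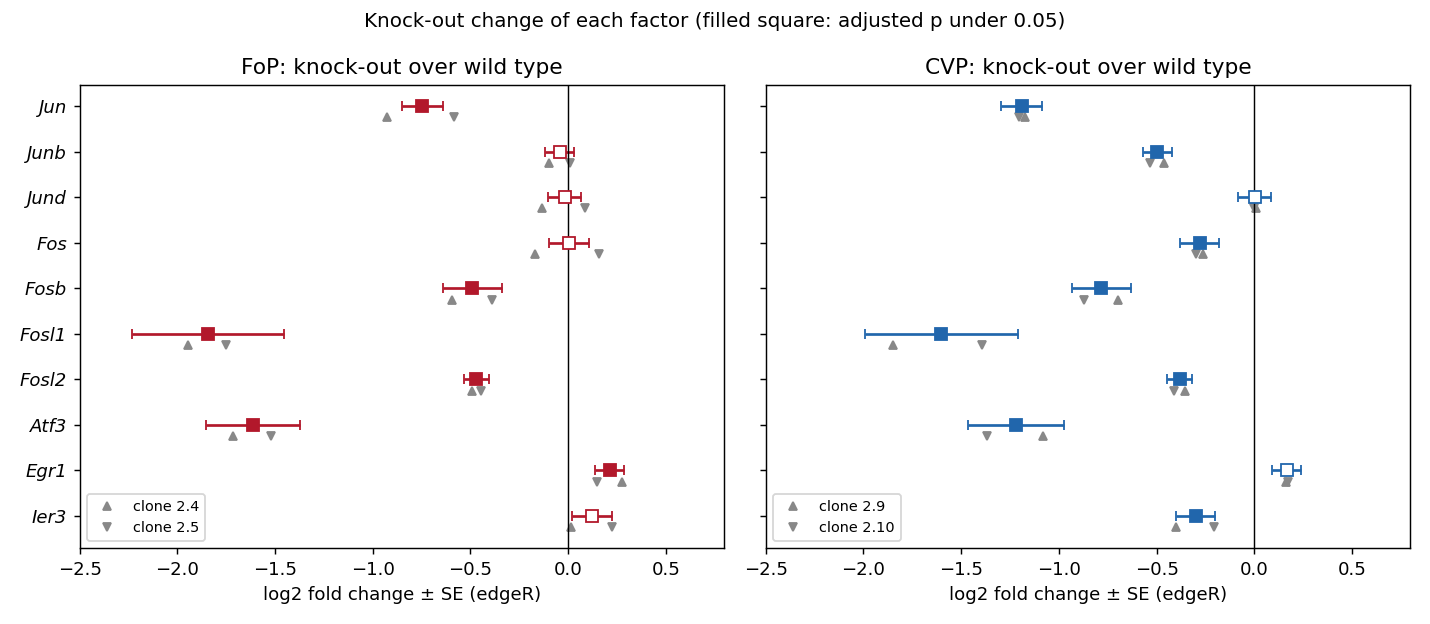
Log2 fold change of each member, KO over wild type, in FoP (left) and CVP (right) from edgeR, with bars of 1 SE; filled squares have an adjusted p under 0.05 and grey triangles give each clone against the wild type of its line. Jun, Fosb, Fosl1, Fosl2 and Atf3 lie below 0 in both lines and in each of the 4 clones. The FoP clones lie on opposite sides of 0 for Junb, Jund and Fos, and the CVP clones for Jund.

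Counted by overlap alone, 5 members had every KO library below both wild type libraries in FoP, where 25.8% of tested genes did, and 8 in CVP, where 30.0% did. In each line 1 member, Egr1, had every KO library above, as did 23.9% of tested genes in FoP and 31.7% in CVP. No member was called in either line when tested against a change larger than 2-fold (edgeR, glmTreat).

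Clone by clone against the wild type of the line, Jun, Fosl1, Fosl2 and Atf3 were lower in all 4 clones. Clone 2.4 had 5 members lower and 1 higher, clone 2.5 had 4 lower and 1 higher, and clones 2.9 and 2.10 had 8 lower each, beside 17.3%, 18.1%, 23.6% and 24.4% of tested genes called lower in those clones (edgeR). Genes called higher made up 15.1% for clone 2.4 and 16.3% for clone 2.5. Fosb was lower in clone 2.4 (edgeR adjusted p of 0.0117), clone 2.9 and clone 2.10, and not called in clone 2.5 (log2 fold change of -0.39, 0.0786). Egr1 was called higher in clone 2.4 (log2 fold change of 0.28, edgeR adjusted p of 0.0119). Ier3 was called higher in clone 2.5 (0.22 on the log2 scale, edgeR adjusted p of 0.0427), and lower in clone 2.9 (-0.40, 0.000873) and clone 2.10 (-0.21, 0.0445).

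Between the FoP clones, 2 members were called, both higher in clone 2.5, where 3.53% of tested genes were called higher. Jun averaged 153 CPM in clone 2.5 and 121 CPM in clone 2.4, a log2 difference of 0.34 ± 0.07 (edgeR adjusted p of 0.0112). Fos averaged 33.1 CPM in clone 2.5 and 26.4 CPM in clone 2.4, a log2 difference of 0.33 ± 0.08 (edgeR adjusted p of 0.0169). The Jun call was lost without clone 2.4 duplicate 1 (edgeR adjusted p of 0.148) or clone 2.5 duplicate 2 (0.121), and the Fos call without any 1 of the 4 libraries (0.0715 to 0.120). Between the CVP clones 2.10 and 2.9 none of the 10 members was called, where 5.42% of tested genes were, by edgeR; 1 member, Ier3, had an unadjusted p under 0.05 (higher in clone 2.10), and 0 were called by the DESeq2 Wald test. With 2 duplicates per clone these differences are between cultures and do not measure clone-to-clone spread.

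Whether the knock-out change itself differed by line was tested as the FoP minus CVP difference in one fit. Among the members 1 was called, where 15.8% of tested genes were (edgeR). The log2 difference for Junb was 0.45 ± 0.11 (edgeR adjusted p of 0.0132), with KO over wild type at -0.04 in FoP and -0.50 in CVP. It was not called without CVP wild type library 1 (edgeR adjusted p of 0.0807), FoP wild type library 1 (0.0608) or FoP wild type library 2 (0.0581), and with the duplicates summed (0.222). The differences for Jun (0.44 ± 0.15), Ier3 (0.42 ± 0.14) and Fos (0.28 ± 0.14) did not pass in edgeR, with adjusted p of 0.0721, 0.0612 and 0.202, and by the DESeq2 Wald test those of Jun (adjusted p of 0.0242) and Ier3 (0.0207) did. With the 6 cultures as groups in edgeR, those of Jun (adjusted p of 0.00289), Ier3 (0.00596) and Fos (0.0384) passed. Whether the changes of Jun, Fos and Ier3 differed between the lines therefore depended on the fit.

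Between the wild type libraries 2 members were called, both lower in FoP, where 2.91% of tested genes were called lower (edgeR). The members did not share that direction. At an unadjusted edgeR p under 0.05, 3 were higher and 3 lower in FoP. The DESeq2 Wald test called 3 higher and 3 lower, among 2030 genes called in all. The median log2 difference of the members was 0.00, beside 0.01 for all tested genes. Fosl2 (0.25), Fosb (0.54) and Jun (-0.38) did not pass in edgeR (adjusted p of 0.072, 0.0872 and 0.0908). Junb averaged 342 CPM in FoP wild type and 436 CPM in CVP wild type, a log2 difference of -0.35 ± 0.09 (edgeR adjusted p of 0.0324). Fos averaged 29.6 CPM in FoP wild type and 40.2 CPM in CVP wild type, a log2 difference of -0.44 ± 0.12 (edgeR adjusted p of 0.0399). Neither call held without any 1 of the 4 wild type libraries, where the edgeR adjusted p was 0.0891 to 0.216 for Junb and 0.146 to 0.221 for Fos, and that of Fos was 0.0517 without clone 2.9 duplicate 2. Both calls were also lost with culture as a random block in limma voom (adjusted p of 0.0915 for Junb and 0.069 for Fos) and with the duplicates summed in edgeR (0.449 and 0.520), where no gene of the whole table was called. Atf3 averaged 18.7 CPM in FoP wild type and 10.7 CPM in CVP wild type, and this log2 difference of 0.80 ± 0.29 did not pass (edgeR adjusted p of 0.121), though it did without clone 2.4 duplicate 1 (0.0399). The wild type libraries also enter each knock-out comparison, so these values and the knock-out changes are not independent.

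On a scale of CPM per kilobase of exon, Ier3 and Junb stood highest in all 4 groups. The lengths are the merged exons of GENCODE M21, and the annotation used for the counting is not given. The orders between genes below and the family shares above therefore depend on these assumed lengths. In FoP wild type the order of mean levels was Ier3 (199), Junb (149), Jun (72.1), Egr1 (44.6), Fosl2 (36.7), Jund (32.8), Fos (12.6), Atf3 (8.69), Fosb (1.04) and Fosl1 (0.921), and the libraries of Fosb and Fosl1 overlapped. In CVP wild type it was Ier3 (209), Junb (189), Jun (94.0), Egr1 (48.1), Jund (31.1), Fosl2 (30.9), Fos (17.1), Atf3 (4.98), Fosl1 (0.752) and Fosb (0.714), with overlap between Jund and Fosl2 and between Fosl1 and Fosb. In KO libraries Egr1 stood above Jun: in FoP KO the levels were 51.7 and 43.0 with overlapping libraries, and in CVP KO 54.0 and 41.2 without overlap. Jund stood above Fosl2 without overlap in the KO libraries of both lines, at 32.4 and 26.5 in FoP KO and 31.1 and 23.7 in CVP KO. Neighbours in the FoP KO order that overlapped were Egr1 with Jun, and Jun with Jund.

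The genes around the members were taken from 6 lists of known function. For the counts in each list, the shares over all tested genes were 13.5% called higher and 15.3% lower in FoP KO. In CVP KO they were 23.5% and 22.9% (edgeR). Counts near these shares do not set a list apart, and no list was tested as a set. Among 18 tested bZIP partners, 4 were called higher and 6 lower in FoP KO, and 4 higher and 8 lower in CVP KO, with median log2 fold changes of 0.02 and -0.21. Maff, a small Maf protein without an activation domain, averaged 68.4 ± 3.94 CPM in FoP KO and 129 ± 2.55 CPM in FoP wild type, and 31.9 ± 9.56 CPM in CVP KO and 137 ± 19.1 CPM in CVP wild type (SD, n = 4 and 2). Its log2 fold change was -0.92 in FoP and -2.10 in CVP (edgeR adjusted p of 0.012 and 5.48e-05). Crem, a cyclic AMP responsive factor, was higher by 0.51 in FoP and 0.90 in CVP on the log2 scale (edgeR adjusted p of 0.0482 and 0.00133). Nfe2l2, the oxidative stress factor NRF2, was lower by edgeR in both lines, with log2 fold changes of -0.32 in FoP and -0.42 in CVP, and so was Atf6, the endoplasmic reticulum stress factor, with -0.30 and -0.44. Called in FoP by edgeR were also Cebpd at 0.76, Atf7 at 0.26, Atf4 at -0.50 and Atf1 at -0.24 on the log2 scale. In CVP they were Jdp2 at 0.36, Atf2 at 0.20, Maf at -0.90 and Mafk at -0.41.

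Among 40 tested other immediate early genes, 6 were called higher and 13 lower in FoP KO, and 7 higher and 20 lower in CVP KO (edgeR), with medians of -0.19 and -0.20. The genes that moved did not share one direction. Pim1, a kinase of cytokine and growth factor responses, was lower by edgeR in both lines, at 46.5 ± 0.94 CPM in FoP KO against 76.8 ± 4.44 CPM in FoP wild type and 21.6 ± 4.66 CPM in CVP KO against 75.6 ± 11.6 CPM in CVP wild type (SD, n = 4 and 2). Dusp5, a nuclear phosphatase of ERK, was lower as well (log2 fold change of -0.83 in FoP and -1.35 in CVP, edgeR adjusted p of 0.00927 and 0.000197), whereas Dusp6, its cytoplasmic counterpart, was higher (0.97 and 0.66, 0.000579 and 0.00261). Ccn2, a matricellular protein, was higher by 1.20 in FoP and 0.76 in CVP (edgeR adjusted p of 0.00444 and 0.0225), and Ccn1, of the same family, was called lower in FoP at -0.93 (0.00131). Phlda1 was higher in both lines, at 0.61 in FoP and 0.54 in CVP by edgeR. Called in FoP were also Gadd45g at 0.67, Spry2, a brake on receptor tyrosine kinase signalling, at 0.67, the orphan receptor Nr4a1 at -0.72 and Zfp36, which promotes decay of short-lived mRNAs, at -0.53. In CVP the list's strongest calls included Klf2 at 0.85, Myc at 0.60, Arc at -1.38, Egr2 at -1.08 and Gadd45a at -0.86.

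**Figure D4:**
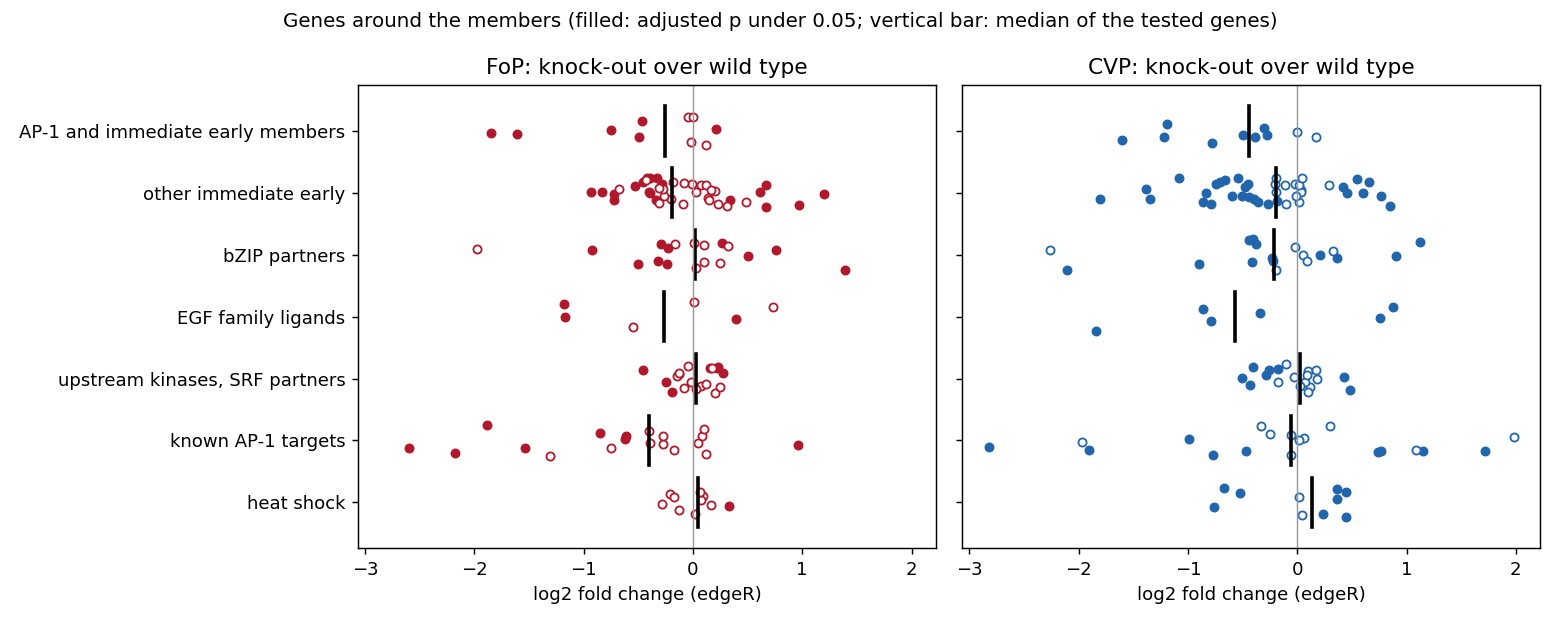
Log2 fold change, KO over wild type, of every tested gene in the 10 members and 6 lists around them, in FoP (left) and CVP (right); filled points have an edgeR adjusted p under 0.05, vertical bars are medians and the vertical spread of points has no meaning. The medians of the members are -0.26 and -0.44, and those of the other immediate early genes -0.19 and -0.20.

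Of 6 tested ligands of the EGF receptor, which feeds the ERK pathway to these genes, 1 was called higher and 2 lower in FoP KO, and 2 higher and 4 lower in CVP KO (edgeR), with median log2 fold changes of -0.27 and -0.57. Hbegf, a ligand released at wounds, averaged 30.4 ± 2.50 CPM in FoP KO and 69.0 ± 1.37 CPM in FoP wild type, and 19.6 ± 1.82 CPM in CVP KO and 70.3 ± 3.11 CPM in CVP wild type (SD, n = 4 and 2). Its log2 fold changes were -1.18 and -1.84 (edgeR adjusted p of 3.06e-06 and 4.06e-08). Ereg was lower by edgeR in both lines, at -1.17 in FoP and -0.87 in CVP, and Btc was higher, at 0.40 and 0.76. In CVP the calls included Areg at -0.79, Tgfa at -0.34 and Egf at 0.88. Epgn, with at most 10 counts in any library, was not tested.

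Among 19 upstream kinases and serum response factor partners, 4 were called higher and 4 lower in FoP KO, and 2 higher and 6 lower in CVP KO (edgeR), with medians of 0.03 in each line. The receptor Egfr was lower at -0.24 in FoP and -0.51 in CVP on the log2 scale (edgeR adjusted p of 0.00602 and 1.53e-05). Mapk8, which encodes the Jun kinase JNK1, was lower at -0.46 and -0.41 (edgeR adjusted p of 0.000449 and 0.000436), and the ERK activator Map2k1 at -0.19 and -0.44 (0.0292 and 6.16e-05). Elk3, a ternary complex factor at serum response elements, was higher at 0.28 and 0.48 (edgeR adjusted p of 0.00379 and 3.77e-05), as was the coactivator Mrtfa at 0.22 and 0.43 (0.0341 and 0.000303). Called by edgeR in FoP were also Mrtfb at 0.23 and Mapk14 at 0.15, and in CVP Mapk3 at -0.28 and Braf at -0.26.

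Among 19 tested genes known as AP-1 targets, 1 was called higher and 7 lower in FoP KO, and 4 higher and 5 lower in CVP KO (edgeR), with medians of -0.40 and -0.06. Ivl, which encodes the cornified envelope protein involucrin, averaged 0.594 ± 0.121 CPM in FoP KO and 2.19 ± 0.675 CPM in FoP wild type, and 0.381 ± 0.137 CPM in CVP KO and 1.43 ± 0.0039 CPM in CVP wild type (SD, n = 4 and 2). It was lower at -1.88 in FoP and -1.91 in CVP on the log2 scale (edgeR adjusted p of 0.00135 and 0.00067). Lor, which encodes loricrin of the same envelope, was lower at -1.54 in FoP and -0.99 in CVP (edgeR adjusted p of 0.00202 and 0.0158). The matrix proteases Mmp13 and Mmp9 were called lower in FoP, at -2.18 and -2.60 on the log2 scale, and so was the urokinase receptor Plaur at -0.85 (edgeR). In CVP the alarm cytokine Il1a averaged 7.36 ± 3.57 CPM in KO and 52.0 ± 3.56 CPM in wild type (SD, n = 4 and 2), a log2 fold change of -2.82 (edgeR adjusted p of 0.00017). Plau, which encodes the plasminogen activator urokinase, was lower there at -0.46 by edgeR. The chemokine Cxcl1 was higher in both lines, at 0.96 in FoP and 0.74 in CVP (edgeR adjusted p of 0.0173 and 0.0323), and in CVP Vim, Timp1 and the cyclin Ccnd1 were higher at 1.72, 1.15 and 0.77.

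The 10 heat shock genes, which mark cell stress, summed to 1806 to 1957 CPM in FoP KO, 1851 to 1911 CPM in FoP wild type, 1803 to 2014 CPM in CVP KO and 1898 to 1907 CPM in CVP wild type, and the groups overlapped in both lines. In FoP KO 1 of the 10 was called higher and 0 lower, namely Dnajb1 at 0.33 on the log2 scale, and in CVP KO 5 were higher and 3 lower (edgeR). In CVP those lower were Hspb1 at -0.77 and the near-identical copies Hspa1a and Hspa1b at -0.67 and -0.52, whose reads counting could split, and those higher ranged from 0.24 for Hsp90aa1 to 0.45 for Dnaja1. Among markers of other cells, the 6 immune markers summed to 38.02 to 66.7 CPM in FoP KO, 65.4 to 69.3 CPM in FoP wild type, 10.2 to 18.1 CPM in CVP KO and 103 to 108 CPM in CVP wild type. Their sum came from H2-Ab1, Cd68 and Lyz2 in wild type, and from H2-Ab1 and Cd68 in KO. Lyz2 was at 0 counts in every KO library of both lines. It averaged 4.14 CPM in FoP wild type and 23.0 CPM in CVP wild type. Ptprc was at 0 in every library, and Cd3e and Adgre1 had at most 2 counts in any library. The part of these values in the changes of the members was not tested.

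The genes whose log2 CPM over the 12 libraries was most like that of Jun were Cystm1 (Pearson r of 0.98), Ctdspl2 (0.98), Cbr2 (0.98), Tspan14 (0.97) and B3gnt7 (0.97), out of 13904 named genes. Each of the 5 had a negative log2 fold change in both lines, from -0.20 for Tspan14 to -1.65 for B3gnt7 in FoP and from -0.36 for Ctdspl2 to -2.86 for B3gnt7 in CVP. They were picked for likeness to Jun over these same libraries, so a shared sign was favoured by that choice. For Fos the nearest were Ndufa12 (Pearson r of 0.93), Fam174b (0.93), Unc5cl (0.92), Abcc4 (0.92) and Spp1 (0.91). Their log2 fold changes ran from -1.21 for Fam174b to 0.57 for Unc5cl in FoP. In CVP they ran from -3.51 for Fam174b to -0.16 for Ndufa12. The 12 libraries share 6 cultures and 2 lines, so these values of r describe likeness over few independent points.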

How the data were processed

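RNA was measured in 12 bulk libraries. Per the labels' protocols, RNA was prepared with a Qiagen kit and sequenced as stranded mRNA libraries. The values used are the raw counts the authors deposited, as 1 table with 12 columns and 55367 genes. STAR, featureCounts and the human build hg38 are named without versions, per the submitters' processing notes, while the deposited gene symbols are mouse. The annotation and the strand setting of the counting are not given in the sources used here. Overlapping genes may therefore share reads.

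Libraries were grouped by line and genotype into 4 groups and, for clones, by culture into 6. After filterByExpr and TMM scaling, the main test was the quasi-likelihood F test of edgeR 4.0.16 (R 4.3.3), with Benjamini-Hochberg adjustment over 17076 genes and a threshold of 0.05. Each SE is approximate, the log2 fold change divided by the square root of F. CPM values use TMM-scaled totals, and levels per kilobase use exon lengths of GENCODE M21 (GRCm38), which were matched by symbol. Totals of 59.3 to 73.6 M counts make 1 CPM about 59.3 to 73.6 counts before scaling. Fosl1, the lowest member, had 13 to 50 counts in knock-out and 101 to 142 in wild type libraries. The duplicates of each culture differed beyond sampling noise, with chi-square over degrees of freedom of 8.17 to 40.7, and were kept as separate libraries.

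The 10 members and the lists were chosen with earlier results of these data known. All members are named, and of each list the called genes with the largest change, up to 5 in each direction per line. The 5 genes most correlated with Jun and with Fos are named too, predicted genes left out. Some genes that the rule names are not reported here. The fit was tested on simulated data of the same 4 groups: of 100 genes changed 2-fold it recovered 84 for FoP and 83 for CVP, and of 100 changed 4-fold 98 and 95, with 10 and 11 false calls among 16876 unchanged genes. The simulated libraries were drawn independently, without a shared effect of a culture. These counts therefore do not measure false calls that arise because duplicates share a culture. Alternatives were DESeq2 size factors, the DESeq2 1.42.0 Wald test, limma 3.58.1 voom with culture as block, no filter and a stricter filter (1 CPM in 4 libraries), duplicates summed, the duplicate number as block, 6 cultures as groups, a 2-fold null, counts halved and rounded, the 10 most abundant genes of any library left out of scaling, and each library and clone left out. Halving was tried because counts of 2 and 4 occurred 20289 and 10030 times, beside 20007 and 6626 for 1 and 3, as when both mates of a pair are counted.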

Additional observations from a re-analysis of the deposited data

Results flagged for a closer look

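The response of Junb to the knock-out label was called as different between the lines by a direct test. The FoP minus CVP log2 difference of the KO over wild type change was 0.45 ± 0.11 (SE, edgeR adjusted p of 0.0132). Junb was the 1 member called of 10, where 15.8% of all tested genes were called, so this call does not set the members apart. In FoP the KO libraries held 314 to 351 CPM and the wild type libraries 342 to 343 CPM, and in CVP the KO libraries held 279 to 338 CPM and the wild type libraries 417 to 455 CPM. The KO libraries of the lines overlapped, while the wild type libraries stood apart. The call was lost without CVP wild type library 1 (edgeR adjusted p of 0.0807), FoP wild type library 1 (0.0608) or FoP wild type library 2 (0.0581), and with the duplicates summed (0.222).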

How the results depend on the processing

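Over 27 alternatives, 1321 of the values of the 10 members in the 6 comparisons kept direction and call, 81 lost a call, 33 gained one and 45 changed sign. Jun, Fosl1, Fosl2 and Atf3 kept their calls in both lines whichever library or clone was left out. Calls over all genes are given in brackets. Members called numbered 6 (4921) in FoP and 8 (7929) in CVP; with the duplicates summed these were 1 (372) and 5 (3420), and against a 2-fold null 0 (187) and 0 (510). For the FoP minus CVP difference, 1 (2692) was called, against 3 (3529) by the DESeq2 Wald test, 0 (0) with duplicates summed, 0 (8) against 2-fold and 4 (4424) with 6 cultures as groups. For FoP against CVP wild type, 2 (1140) were called, against 6 (2030) by the DESeq2 Wald test, 0 (522) by voom, 0 (0) with duplicates summed, 1 (895) with the replicate block, 0 (5) against 2-fold and 5 (2788) with 6 cultures as groups. Without a filter on low counts 1 member (1494) was called between the CVP clones and 4 (1913) between the FoP clones, where 0 (117) passed against 2-fold. Summing leaves 6 columns; the other causes were not tested.

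With 1 library or clone left out, members called ranged from 4 to 6 in FoP, 6 to 9 in CVP, 0 to 4 for the difference between lines, 0 to 5 between wild types, 0 to 0 between CVP clones and 0 to 2 between FoP clones. The difference had 0 without CVP wild type library 1 or either FoP wild type library, and 3 without clone 2.4 duplicate 1; the wild type comparison had 0 without any wild type library and 5 without clone 2.4 duplicate 1.

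None of the values that changed sign was a called value. In CVP, Jund was -0.00897 with DESeq2 size factors, -0.00896 by the Wald test and -0.000156 with duplicates summed; in FoP, Fos was -0.0092 by voom, -0.00073 with duplicates summed and -0.00356 with 6 cultures as groups. Leaving out libraries or clones moved the log2 values across 0 for FoP KO in Fos (-0.17 to 0.17), Junb (-0.10 to 0.015) and Jund (-0.13 to 0.095), for CVP KO in Jund (-0.021 to 0.025), and for the difference between lines in Egr1 (-0.011 to 0.11), Fosl1 (-0.50 to 0.034) and Jund (-0.13 to 0.10). Between the FoP clones it did so for Atf3 (-0.23 to 0.79), Fosl1 (-0.47 to 1.48) and Fosl2 (-0.045 to 0.15), and between the CVP clones for Egr1 (-0.069 to 0.091), Fos (-0.15 to 0.066), Fosb (-0.33 to 7.95e-05), Jun (-0.090 to 0.022), Junb (-0.18 to 0.034) and Jund (-0.069 to 0.046).

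Duplicate numbers showed little sign of pairing the libraries over all tested genes. For 15 pairs of cultures the same-numbered deviations correlated at -0.06 to 0.11, with 1 over 0.1. A pairing that touched few genes would not show in these values. With the replicate block, Egr1 in FoP (edgeR adjusted p of 0.0622) and Fos between wild types (0.0504) were not called.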
